A study of Mus musculus with 12 samples.

Results

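The cytosolic ribosomal protein genes were followed through ATAC-seq peak lists of mouse bone marrow. They were the autosomal protein-coding genes whose symbol is Rpl or Rps followed by a number, with Rplp0, Rplp1, Rplp2 and Rpsa and without the Rps6k kinase and Rps19bp genes, in a RefSeq annotation of GRCm38. The rule found 86 genes among 20661 autosomal protein-coding genes, 53 named for the large and 33 for the small ribosomal subunit. They lie on 18 autosomes, with 14 on chromosome 7. A further 4 genes with such names lie on X and 309 are annotated as pseudogenes, and these were left out. The genes were chosen with results of these data known, namely with how their peaks stood against those of other genes at equal rank, so they were in effect selected on the percentiles and widths of those peaks, and calls and widths are given as descriptions without a test.

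ATAC-seq cuts accessible DNA with a transposase, and a peak is a stretch where cuts pile up. All libraries came from C57BL/6 mice, from CD45.2+ bone marrow cells sorted by FACS, with 150000 cells per sample. The Control genotype was CD45.2(+) with no fusion named, and the others added a fusion gene to CD45.2(+), either BRD9-NUTM1 (BN1) or 1 of 2 MLL fusions, MLL-AF9 (named MA9) and MLL-ENL (named ME). Each group had 3 of the 12 libraries. BRD9 belongs to a SWI/SNF chromatin remodeller and NUTM1 is a testis protein that recruits p300, while MLL is a histone methyltransferase and AF9 and ENL work in transcription elongation. The promoter that drives each fusion, the number of clones and the host cells left in the marrow are not given in the sources used here. Replicates are numbered, and nothing says whether they came from separate animals, so p-values measure only the spread between these samples.

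The ribosome is built from ribosomal RNA and a large set of different proteins, which the cell makes in matched amounts. Their mRNAs are among the most abundant in dividing cells, and many begin with a C followed by a run of pyrimidines, the 5′ terminal oligopyrimidine tract, through which mTOR signalling sets their translation. Blood is sensitive to a shortage of them: inherited loss of 1 copy of several of these genes causes Diamond-Blackfan anaemia, and Rpl5 and Rpl11 bind the p53 ligase Mdm2 when assembly fails. Short introns of many members hold small nucleolar RNA genes.

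The promoters were compared first, since they can be read independently of the peaks. Of the 86 members, 65 were in the RefSeq promoter table of GRCm38.p6, and 55 of these had exactly 1 annotated start site. A window of 300 bases per gene, from 250 before to 50 after the start site, was searched on both strands, and the same was done for all 13796 genes with 1 start site. TCTCGCGA was found in 16.4% of member promoters and 1.48% of all promoters, CCGGAAG, a core of ETS family sites, in 38.2% and 12.2%, and TGACGTCA, the cyclic AMP response element, in 9.09% and 2.36%. AAGATGGCG, a YY1-type site, was in 5.46% and 2.02%, the GC box GGGCGG in 54.5% and 46.4%, TATAAA in 10.9% and 14.6%, and the E-box CACGTG in 5.46% and 7.80%. No searched motif contains another. Against promoters of other genes called in Control, members had GGGCGG less often (69.4% of those others) and TATAAA more often (6.21%), the reverse of the order against all promoters. These sets are unlike, since all 55 members are counted and 47 of them were called at the start site in Control. Of members called there, GGGCGG was in 11 of 13 also called in BN1 and 18 of 34 not called in all BN1 libraries. TATAAA was in 2 of 13 and 2 of 34. The same limit holds for the other comparisons with called genes in this paragraph. Other genes called in Control held TCTCGCGA in 3.15%, CCGGAAG in 23.8%, TGACGTCA in 3.95%, AAGATGGCG in 4.38% and CACGTG in 11.3%. A run of 5 or more pyrimidines at the start base or within 3 bases of it was present in 27 of 55 members (49.1%) against 25.9% of all promoters and 26% of other genes called in Control, and the start base was C in 38.2% against 13.98% and 14.27%. Median GC content was 56.7% in the members, 56.3% in all promoters and 61.3% in promoters of other genes called in Control.

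Shown here are the 100 bases from 80 before the start base to the 20th transcribed base for 8 members, because they had the largest gains or the smallest changes in the measurement that separated MA9 from Control at these genes. That measurement is the downstream reach, the distance in bp from the start site to the peak edge on the gene side. Genes at a peak shared with another gene were left out, and the choice was made after the values were seen. On the log2(bp + 50) scale used for the fit, the first 5 had the largest gain in downstream reach in MA9 and the last 3 the smallest mean change, an order that differs in bp. Sequences are from RefSeq on GRCm38.p6, 5′ to 3′ on the gene's strand, and capitals mark the pyrimidine run at the start site where 1 was found.
Rps10 (chr17:27635225-27635324, minus strand): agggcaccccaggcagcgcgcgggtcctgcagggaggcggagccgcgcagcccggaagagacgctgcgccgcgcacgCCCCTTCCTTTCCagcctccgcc
Rpl5 (chr5:107900448-107900547, plus strand): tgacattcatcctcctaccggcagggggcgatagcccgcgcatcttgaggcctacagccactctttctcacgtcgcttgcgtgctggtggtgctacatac
Rpl38 (chr11:114668500-114668599, plus strand): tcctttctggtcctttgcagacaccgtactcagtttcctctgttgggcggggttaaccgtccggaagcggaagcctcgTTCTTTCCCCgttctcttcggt
Rpl11 (chr4:136053374-136053473, minus strand): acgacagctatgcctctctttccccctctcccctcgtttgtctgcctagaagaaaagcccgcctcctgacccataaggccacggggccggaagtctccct
Rps15 (chr10:80292351-80292450, plus strand): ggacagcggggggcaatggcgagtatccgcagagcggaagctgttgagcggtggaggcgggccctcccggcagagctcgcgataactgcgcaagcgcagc
Rpl7l1 (chr17:46782637-46782736, minus strand): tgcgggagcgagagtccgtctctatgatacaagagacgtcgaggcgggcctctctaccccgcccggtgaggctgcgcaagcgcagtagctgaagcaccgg
Rps26 (chr10:128626487-128626586, minus strand): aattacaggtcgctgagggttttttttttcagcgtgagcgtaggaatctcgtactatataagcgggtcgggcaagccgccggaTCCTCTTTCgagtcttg
Rpl37a (chr1:72711180-72711279, plus strand): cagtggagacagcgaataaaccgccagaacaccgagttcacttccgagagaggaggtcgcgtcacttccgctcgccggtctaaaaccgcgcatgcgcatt
At the start site used, a run was found in Rps10 (13 bases), Rpl38 (10) and Rps26 (9), so it was present and absent in both sets. For Rpl5 the start site used, 107900528, lies inside the gene from the annotated gene start, 107900508. A pyrimidine run begins at that gene start and is not marked, and the reach of Rpl5 is also measured from 107900528. Among the 30 members called longer in MA9, 17 had a run and 15 held CCGGAAG in the 300 bases, against 6 and 4 of the 17 others fitted. A match or its absence is a description of these letters only.

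The lists set limits that apply to every value. Libraries held 25541 to 28023 autosomal peaks in Control, 31968 to 33588 in MA9, 8546 to 9663 in ME and 3011 to 4258 in BN1. They give no read numbers, so depth is unknown, counting error has no interval, and a gene without a peak is not shown to be closed. Of 10 leukocyte markers, 10 had a gene-end peak in all 3 libraries in Control and MA9, 4 in ME and 2 in BN1. Of 7 B cell markers the numbers were 7 in Control, 1 in MA9 and 0 in ME and BN1, and of 8 erythroid markers 6, 2, 1 and 0. T cell markers gave 1 of 6 in every group, megakaryocyte markers 2 of 5 in Control and 0 elsewhere, and 5 non-blood markers 0 everywhere. B cell, erythroid and megakaryocyte counts were lower than Control in every fusion group, and the leukocyte count in ME and BN1 only. These markers move with the comparisons against Control that follow, and their part in the results was not tested. In such bulk libraries, fewer cells of a type and less signal per cell cannot be told apart.

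Ribosomal protein genes had a peak within 1 kb of a gene end more often than other genes in each of the 12 libraries. In all 3 Control libraries 73 of 86 members were called, where 43% of all genes were. MA9 called 72 members (45.4% of all genes), ME 62 (26.9%) and BN1 19 (10.1%). Per library the counts were 73, 73 and 75 in Control, 73, 73 and 72 in MA9, 65, 66 and 63 in ME, while BN1 had 29, 22 and 25. The ranges of Control and MA9 met, and those of ME and BN1 lay lower, in the order of the list lengths. With every list cut to its 3011 strongest peaks the counts were 40 for Control and 24, 22 and 18 for MA9, ME and BN1. The share of all genes at equal length was not computed, so these counts have no background beside them. With the full lists ME and BN1 were lower in both subunits. There were 44 large and 29 small subunit members in Control, 44 and 28 in MA9, 36 and 26 in ME, and 10 and 9 in BN1.

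**Figure D1:**
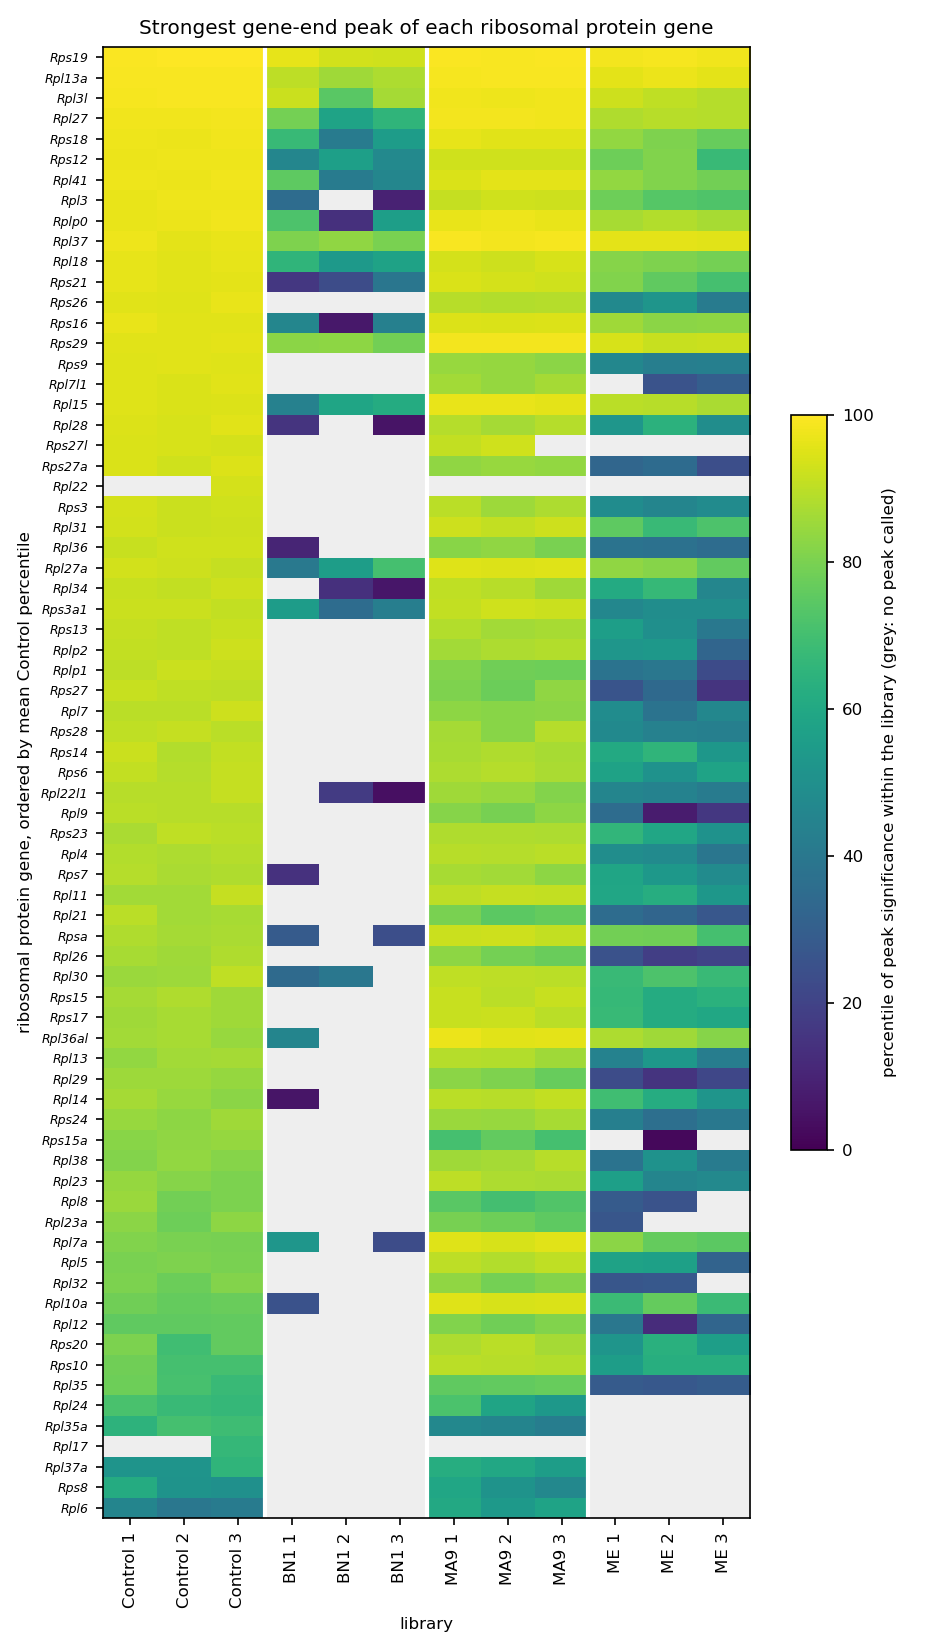
Percentile of the strongest gene-end peak by significance within its library (colour, 0 to 100; grey where no peak was called) for 72 of the 75 members called in at least 1 library (rows) in 12 libraries (columns). Most rows are near the top of the scale in Control and MA9, spread over the scale in ME, and grey in BN1.

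Member peaks ranked high in Control and MA9 and near the middle of the shorter lists. The median percentile of the −log10 p at the summit within its own library was 90.1 ± 0.612 in Control (SD, n = 3) for members and 78.7 ± 0.676 for other genes. The MA9 medians were 88.9 ± 0.486 and 81.1 ± 0.271. In ME and BN1 called members ranked below other called genes, at 57.7 ± 4.39 against 63.4 ± 0.839 and at 54.1 ± 1.40 against 57.3 ± 1.41. The medians cover called genes only. On average 75.2% of members but 28.6% of other genes were called in ME libraries, and 29.5% and 12.5% in BN1 libraries. A lower median of called members is therefore not a lower rank of members as a whole. The 2 ranges per library did not overlap in ME (52.9 to 61.4 against 62.5 to 64.0). In BN1 they did not overlap either, but lay within a point of each other (52.5 to 55.2 against 55.7 to 58.5).

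At equal strength in Control, fewer members than other genes were called in BN1. Of the 73 members called in all Control libraries, 19 were called in all BN1 libraries, where genes within 2.5 percentile points in Control would give 27.5 (23.4% of all genes called in Control). In ME it was 62 against 60.3 (61.5% of all genes) and in MA9 72 against 72.03 (93.8%). With the signal column in place of −log10 p as the strength, the BN1 difference shrank from -8.51 to -2.74 genes. Members without a full set of BN1 calls that ranked high in Control included Rpl3, a peptidyl transferase centre protein, with Control percentiles of 96.8, 97.4 and 97.4. Rpl3 had BN1 peaks in replicates 1 and 3 (35.4 and 9.64) and none in replicate 2. Rps26 (95.6, 95.2 and 96.6), Rps9 (95.2, 95.5 and 95.3) and Rpl7l1 (94.96, 94.4 and 95.4) had no BN1 peak.

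The 19 members called in all BN1 libraries were also called in all 9 others, as nearly all genes were. Of 2080 genes called in all BN1 libraries, 2078 were also called in all Control libraries. The numbers were 2079 for MA9 and 2073 for ME. Rps19, the gene most often mutated in Diamond-Blackfan anaemia, led the 19 members with percentiles of 96.3, 93.2 and 92.8 in BN1. It was also at 99.6, 99.7 and 99.8 in Control, 99.6, 99.2 and 99.5 in MA9, and 98.1, 98.4 and 97.9 in ME, so it stayed near the top of each list. High mean BN1 percentiles were also those of Rpl13a (87.7), Rpl3l (84.2) and Rps29 (81.5). The Rpl3l peak lies at the far end of that gene, beside the end of Msrb1. The lowest of the 19 were Rps21 (26.2), Rps16 (32.0), Rps3a1 (44.4), Rplp0 (47.3) and Rps12 (49.8). Of the 20 members that are Diamond-Blackfan anaemia genes, 20 were called in Control and MA9, 17 in ME and 5 in BN1. All 7 Mdm2-binding members were called in Control, MA9 and ME and none in BN1, each in all 3 libraries. In BN1 these counts stand beside 22.1% of all members and 10.1% of all genes.

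**Figure D2:**
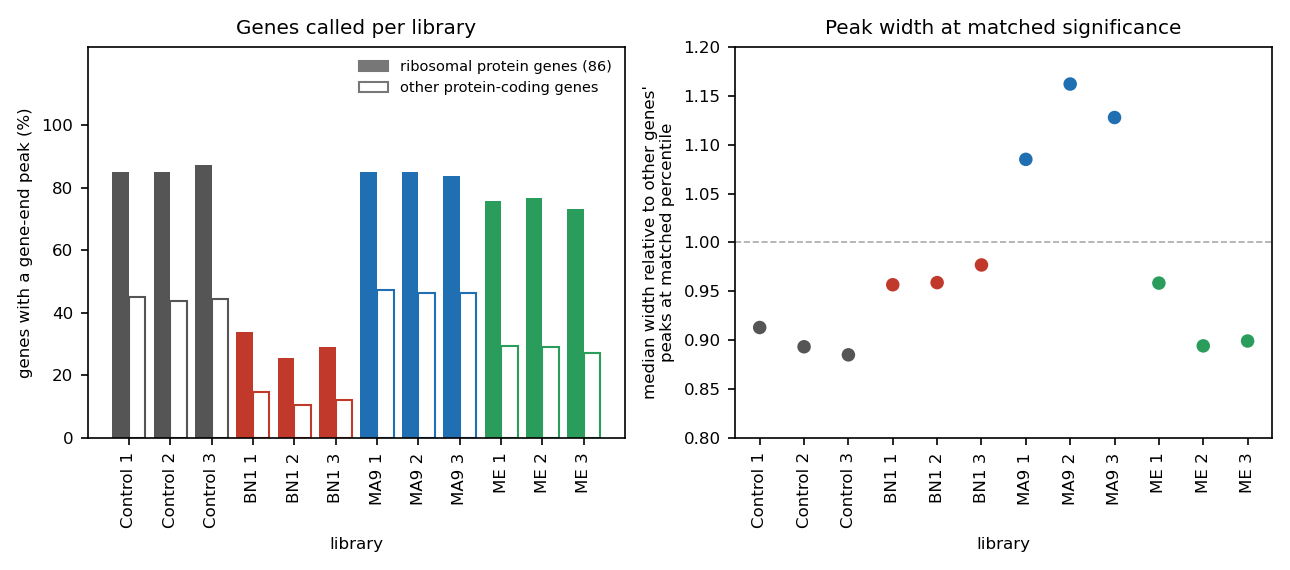
Left, genes with a gene-end peak in percent per library, for the 86 ribosomal protein genes (filled bars) and other autosomal protein-coding genes (open bars). Right, median width of member peaks relative to other genes' peaks within 2.5 percentile points in the same library, with a dashed line at 1; the 3 MA9 libraries are above 1 and the other 9 below it.

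Members that stayed without a call were mostly copies of other members. No library called Rpl10l, Rpl19, Rpl31-ps12, Rpl32l, Rpl34-ps1, Rpl37rt, Rpl39l, Rps2, Rps23rg1, Rps25 and Rps27rt. For Rps2, a small subunit protein at the mRNA entry, the annotated span reaches past the promoter, and its start site was covered by a peak. Among paralogs, the peak of Rps27l, a p53-responsive copy of Rps27, was called in Control (94.5, 94.0 and 93.7) and in MA9 replicates 1 and 2 (90.8 and 92.7) and in none of ME or BN1. In Control replicate 1 this peak began at 66945550, near the limit of the 1 kb window from the gene start at 66944624. The Rps27l peak covered an annotated start site in 5 of 5 libraries called. Rpl22, whose loss occurs in T cell leukaemia, was called in Control replicate 3 only (93.6), where its peak lies inside the annotated span. That peak covered an annotated start site and began at 152325404, also near the window limit from the gene start at 152324436. At Rps27l and Rpl22 a peak just outside the window would not be called, so a missing call does not show a lost peak. The Rpl22 paralog Rpl22l1 was called in all libraries of Control, MA9 and ME and in BN1 replicates 2 and 3. How reads matching more than 1 copy were placed is not given in the sources used here, so values of paralogs and of genes with pseudogenes are uncertain. Of 75 called members, 19 had a peak that also lay within 1 kb of an end of another protein-coding gene, where the 2 genes cannot be told apart.

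Relative strength was then compared between groups. For each pair of groups, the −log10 p was ranked within each library over the genes called in all 6, turned into normal scores and fitted with limma, with Benjamini-Hochberg adjustment over all genes fitted and a threshold of 0.05. Values are given as percentiles of that rank. The members were chosen by symbol with these ranks already known, so their counts and adjusted p-values describe these libraries and are not independent support. Comparisons against Control share the 3 Control libraries and are given side by side, and no agreement between them is read as a result.

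In MA9 against Control, 15 members ranked higher and 42 lower of 72 fitted, where 35.9% and 40.6% of all genes did. With the signal column the split was 18 higher and 30 lower, against 35.1% and 39.2% of all genes. The median member changed by -0.32 on the normal score scale and the median gene by -0.05. Rpl10a, a large subunit protein at the L1 stalk, ranked at 42.3, 43.3 and 42.4 in Control and 80.1, 76.5 and 78.4 in MA9. Its groups lay far apart, with a rise of 0.97 ± 0.062 (SE; limma adjusted p = 7.82e-11). Rpl7a, a large subunit protein, ranked at 47.6, 49.3 and 46.3 in Control and 79.8, 77.7 and 82.4 in MA9 (adjusted p = 2.91e-10). The next largest rises were those of Rpl36al (25.7 percentile points), Rps10 (25.003), Rps20 (18.7) and Rpl5 (15.8), all with groups that did not overlap. The peaks of Rpl7a and Rpl36al also lie within 1 kb of an end of Med22 and Mgat2.

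The falls in MA9 were led by Rps9, a small subunit protein needed for early assembly. Rps9 ranked at 83.0, 85.2 and 83.4 in Control and 48.9, 49.6 and 46.6 in MA9, a fall of 35.5 percentile points (limma adjusted p = 2.14e-11). Rplp1, an acidic stalk protein, fell by 32.6 points, and Rps27a, which encodes a ubiquitin fusion, by 31.2. Rpl36 (31.1), Rpl7l1 (30.2) and Rps27 (29.0) followed, and none of these groups overlapped. The peaks of Rps27a, Rpl36 and Rps27 also lie within 1 kb of an end of Clhc1, Micos13 and Rab13. Small subunit members fell at 20 and rose at 6 of 28, and large subunit members fell at 22 and rose at 9 of 44. Of 20 Diamond-Blackfan anaemia genes, 5 rose and 11 fell. Of 7 Mdm2-binding members, 2 rose and 4 fell. With start-site peaks, 11 members ranked higher and 24 lower of 47 (35.2% and 41.6% of all genes).

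**Figure D3:**
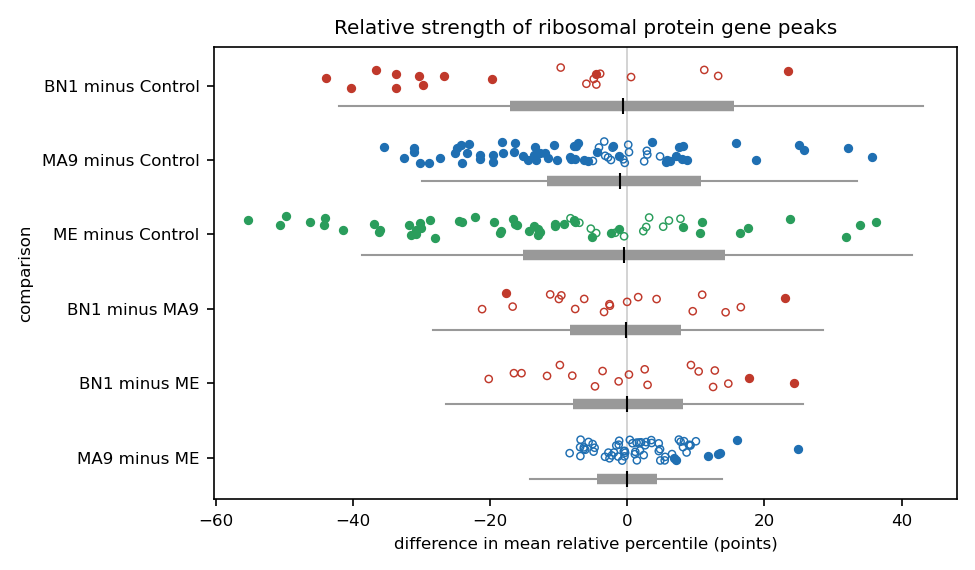
Difference in mean relative percentile (points, horizontal axis) for each fitted member in 6 comparisons; filled points passed the limma threshold and open points did not. The grey bar and line beside each comparison give the middle 50 and 90 percent of all genes fitted, with a tick at the median; members lie mostly left of 0 in the comparisons with Control.

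In ME against Control, 9 members ranked higher and 39 lower of 62, against 37.1% and 40.5% of all genes. By the signal column it was 19 higher and 30 lower, against 41.3% and 34.7%. Rps27a had the largest fall, from 70.0, 66.5 and 71.8 in Control to 13.4, 15.4 and 13.5 in ME (limma adjusted p = 1.01e-10). Rps9 fell by 50.7 percentile points, Rps26, which lies at the mRNA exit channel, by 49.8, and Rps27 by 46.2. No ME library had a peak over the Rps26 start site. Rpl36 and Rpl9 fell by 44.2 and 44.1, and the peak of Rpl9 also lies by an end of Lias. Among the rises, Rpl7a went from 28.3, 30.3 and 27.6 to 70.4, 61.4 and 63.1 (adjusted p = 4.33e-08). Rises followed at Rpl36al (33.9 points), Rpl10a (31.9), Rps10 (23.7), Rps20 (17.7) and Rpsa (16.5), the last a small subunit protein also known as a laminin receptor. Of 17 Diamond-Blackfan anaemia genes fitted 3 rose and 9 fell, and of 7 Mdm2-binding members 0 rose and 4 fell. With start-site peaks, 7 members ranked higher and 20 lower of 40 (36.7% and 40.8% of all genes).

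In BN1 against Control, 1 member ranked higher and 10 lower of the 19 fitted, against 26.5% and 29.7% of all genes. Without Control replicate 3 the total was 7 in place of 11, with peaks of signal 400 or more it was 3, and by the signal column 4 ranked higher and 6 lower (32.2% and 22.5% of all genes). Rps21, a small subunit protein, ranked at 53.5, 48.7 and 48.9 in Control and 4.50, 16.3 and 20.5 in BN1. The groups did not overlap, and the fall was 1.18 ± 0.244 (SE; limma adjusted p = 0.00306). Rps16 and Rps12 fell by 33.8 percentile points each. Falls followed at Rplp0 (30.4), the scaffold of the stalk, Rps18 (29.8), Rpl41 (26.8), Rpl27 (19.7) and Rps19 (4.55). The peak of Rps18 also lies by an end of Vps52. The rise was that of Rps29, from 46.6, 49.4 and 49.3 to 68.6, 78.7 and 68.1 (adjusted p = 0.00398). By the signal column the falls of Rps21 (-0.21), Rps16 (-0.20), Rps12 (-0.16) and Rplp0 (-0.09, normal scores) were smaller and did not pass, and the directions of Rps29, Rpl27 and Rps19 were reversed, and that of Rps19 also on a log2 scale of −log10 p. The fit for Rplp0 lost its call without any 1 of 5 libraries (BN1 replicates 2 and 3 and each Control replicate), and that for Rpl41 without BN1 replicate 2, Control replicate 1 or Control replicate 3. The call for Rps19 was lost without BN1 replicate 2 or 3 or Control replicate 2 or 3, and that for Rpl27 without Control replicate 3. With start-site peaks in place of gene-end peaks, 0 members ranked higher and 6 lower of 13 (26.3% and 30.1% of all genes).

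Other members known from disease or signalling, and further paralogs, are given with their change in MA9 and then in ME. Rps14, the small subunit gene lost in the 5q- syndrome, fell by 13.4 percentile points in MA9 (limma adjusted p = 6.97e-05) and by 14.3 in ME (0.00165). Rps6, the target of S6 kinase, fell by 10.7 and 18.5, and Rpl3 by 19.6 and 24.6. Rps19 fell by 1.17 and 1.27 points at the top of the scale, with the opposite direction in the signal column. Rpsa rose by 7.04 and 16.5. Rpl11 was at +2.46 in MA9 (adjusted p = 0.477) and -7.65 in ME (0.109), and neither passed. Rplp0 was at -2.15 in MA9 (0.151) and fell by 5.13 in ME (0.0203), a call lost without ME replicate 1 or Control replicate 3, while in the signal column both values were positive. Rpl5 was at +2.76 in ME (0.673), with overlapping groups. Of the paralogs, Rpl22l1 fell by 19.7 and 28.7 and Rpl3l by 4.38 and 9.21, and in MA9 the signal column gave Rpl22l1 a small rise.

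Among the leukaemias few members differed. MA9 against ME had 7 members higher and 0 lower of 62, against 12.7% and 13.2% of all genes. They were Rps3a1, Rpl4, Rpl5, Rps26, Rpl10a, Rpl27 and Rps18. The strongest peak of Rpl4 covered its start site in 0 of 9 libraries. In Control replicate 1 it lay past the far end of the gene, near an end of Snapc5. The strongest peak of Rps26 covered its start site in 4 of 9 libraries. Rps3a1 had the largest difference, at 48.5, 59.6 and 55.96 in MA9 and 25.4, 28.8 and 35.003 in ME, without overlap (limma adjusted p = 8.66e-05). Without MA9 replicate 1 or without MA9 replicate 3 the total was 4. By the signal column it was 15 higher and 17 lower (21.4% and 37.1% of all genes), and on a centred log2 scale 16 and 11 (16.5% and 32.8%), so the split depended on the scale. In the signal column Rpl27 and Rps26 ranked lower in MA9 than in ME. With start-site peaks 2 were higher and 1 lower of 40 (9.85% and 11.2% of all genes).

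BN1 had 1 member higher and 1 lower than MA9 of 19 (11.7% and 11.1% of all genes), and 2 higher and 0 lower than ME (9.12% and 8.73%). Rpl18 ranked at 40.5, 44.5 and 39.5 in BN1 and 18.8, 14.7 and 21.9 in MA9 (limma adjusted p = 0.0303), and Rpl27 was lower in BN1 (0.0428). The strongest peak of Rpl18 covered its start site in the promoter table in 0 of 12 libraries. Rps3a1 ranked at 28.0, 26.9 and 23.3 in BN1 and 1.16, 1.52 and 2.70 in ME (adjusted p = 0.0029), and Rpl3l was higher as well (0.0494). The totals rested on single libraries. Against MA9 they were 6 without BN1 replicate 1, 1 without BN1 replicate 2 or 3 and 0 without any MA9 library. Against ME they were 6 without BN1 replicate 1 and 1 without BN1 replicate 3 or any ME library. By the signal column 5 members were higher and 2 lower than MA9 (29.8% and 20.3% of all genes), and 7 higher and 0 lower than ME (16.7% and 11.1%). On the centred log2 scale 3 were higher and 0 lower than MA9 (22.4% and 8.37% of all genes). With start-site peaks 0 of 13 differed from MA9 in either direction (11.3% of all genes in each), and 1 was higher and 0 lower than ME (9.57% and 7.45%).

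Peak width set MA9 apart. At matched percentile the median member peak was 1.12 ± 0.0386 times as wide as peaks of other genes in MA9 (SD, n = 3), and 0.897 ± 0.0144 times in Control, 0.917 ± 0.0358 in ME and 0.964 ± 0.0111 in BN1. The MA9 libraries were at 1.09, 1.16 and 1.13, and the highest of the other 9 was at 0.977. Median member width was 883 ± 20.4 bp in MA9 and 619 ± 24.6 bp in Control, against 659 ± 35.0 bp and 541 ± 17.5 bp for other genes.

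Of the 2 peak edges, the one on the gene side of the start site differed more between MA9 and Control. For the 55 members with 1 annotated start site, the peak over that site was taken in each library, a measure added after the widths had been seen. A start-site peak was called in all 3 libraries for 47 members in Control (39.2% of all genes with 1 start site), 47 in MA9 (41%), 40 in ME (24.3%) while BN1 had 13 (8.2%). The median downstream reach of members was 251, 149 and 147 bp in Control and 537, 505 and 520 bp in MA9. The ME medians were 138.5, 131 and 114 bp, and those of BN1 86, 79.5 and 84 bp. For other genes it was 189, 159 and 167 bp in Control and 358, 310 and 313 bp in MA9. Every MA9 library was above every other library in both sets.

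**Figure D4:**
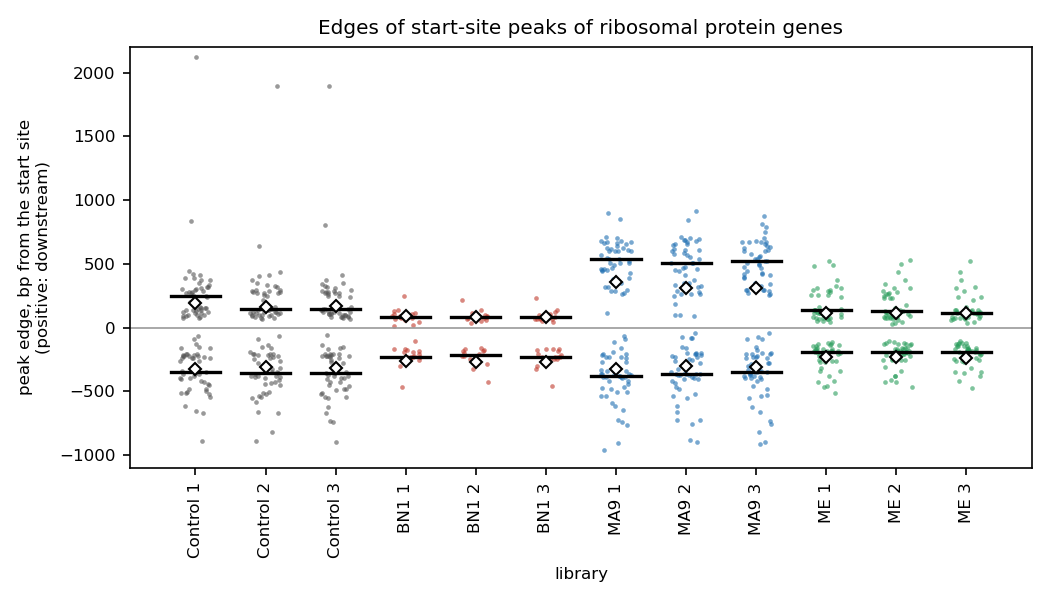
Edges of the start-site peaks of members (points) in bp from the start site, downstream positive and upstream negative, in 12 libraries; black lines are member medians and white diamonds medians of other genes. The downstream medians of the 3 MA9 libraries, 505 to 537 bp, lie above those of the other 9 libraries, and the upstream medians of Control and MA9 overlap.

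At matched percentile, member peaks reached 79, 101 and 143 bp further downstream than those of other genes in the MA9 libraries. In the Control libraries the difference was -16, -49 and -57 bp, in ME it was 8.5, 11.5 and 3 bp and in BN1 3.5, 9.5 and 6 bp. Members with a downstream edge over 250 bp from the start site numbered 24, 20 and 18 of 47 in Control and 46, 42 and 47 of 47 in MA9. Among other called genes the shares were 41.9, 37.0 and 38.5% in Control and 68.4, 61.3 and 62.2% in MA9. Upstream the member medians were 348, 359 and 358 bp in Control and 380, 364 and 349 bp in MA9, so those ranges overlapped. At matched percentile the upstream difference of members was -97, -58 and -100.5 bp in Control and -54, -34 and -31.5 bp in MA9.

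Tested per gene with limma on log2(bp + 50), 30 members had a longer downstream reach in MA9 than in Control and 1 a shorter reach, of 47 fitted, where 37.4% and 6.41% of all genes did. The median change was 1.25 for members and 0.39 for all genes. Centred on each library's median over all genes, which removes the shift shared by all, 21 members were longer. The share of all genes longer after centring was not computed, so this count has no background beside it. Upstream, 8 were longer and 2 shorter (11.4% and 9.39% of all genes). Since the width at matched rank in these libraries led to the measure, the count against the background is a description of the same lists.

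Rpl5, which carries 5S ribosomal RNA into the ribosome, reached 123, 123 and 123 bp downstream in Control, 701, 708 and 701 bp in MA9 and 329, 309 and 314 bp in ME. All 3 groups were apart, and the change from Control to MA9 was 2.12 ± 0.030 on the log2 scale (SE; limma adjusted p = 1.59e-06). Its partner Rpl11 reached 101, 101 and 95 bp in Control and 460, 465 and 811 bp in MA9 (adjusted p = 0.00113). Rps10, a protein of the small subunit head, reached 78, 70 and 70 bp in Control, 566, 443 and 552 bp in MA9 and 70, 70 and 70 bp in ME. Its ME and Control edges lay within 8 bp of each other, and MA9 stood alone (3.24e-05 for MA9 against Control). Rps15 reached 116, 123 and 123 bp in Control and 609, 645 and 639 bp in MA9 (2.74e-06). Rplp0 reached 134, 137 and 141 bp in Control, 615, 584 and 676 bp in MA9 and 522, 532 and 522 bp in ME, so it was long in both MLL fusion groups.

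Rpl38 reached 89, 100 and 100 bp in Control and 849, 667 and 297 bp in MA9 (limma adjusted p = 0.00821), the widest spread in bp within MA9 among these examples. Rps2 reached 302, 294 and 295 bp in Control and 599, 696 and 789 bp in MA9 (0.000467). Rpsa (128 to 451 bp, group means), Rps6 (115 to 473 bp) and Rpl22l1 (168 to 544 bp) were also longer, and Rpl22l1 lost its call without any 1 of the MA9 libraries or Control replicates 2 and 3. Rps28 did not pass, at 316, 316 and 316 bp in Control and 317, 331 and 341 bp in MA9 (0.297). Rpl4 was at 272, 267 and 272 bp and 260, 249 and 256 bp (0.174). Rpl7l1, Rps26 and Rpl37a did not pass either, with mean changes of 2.67, 3 and 63 bp. Rps26 was at 239, 112 and 117 bp in Control and 113, 98 and 266 bp in MA9. Rpl37a was at 277, 258 and 279 bp in Control and 622, 88 and 293 bp in MA9. For these 2 genes the small mean change came with a wide spread between libraries, so it does not show a fixed edge. Rpl41, the smallest ribosomal protein, went the other way, from 2125, 1897 and 1895 bp in Control to 456, 917 and 672 bp in MA9 (0.00539). The gene spans 1059 bp, so in Control the edge lay past its far end and was not an edge inside the gene. The Rpl41 peak also lies within 1 kb of an end of Zc3h10.

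**Figure D5:**
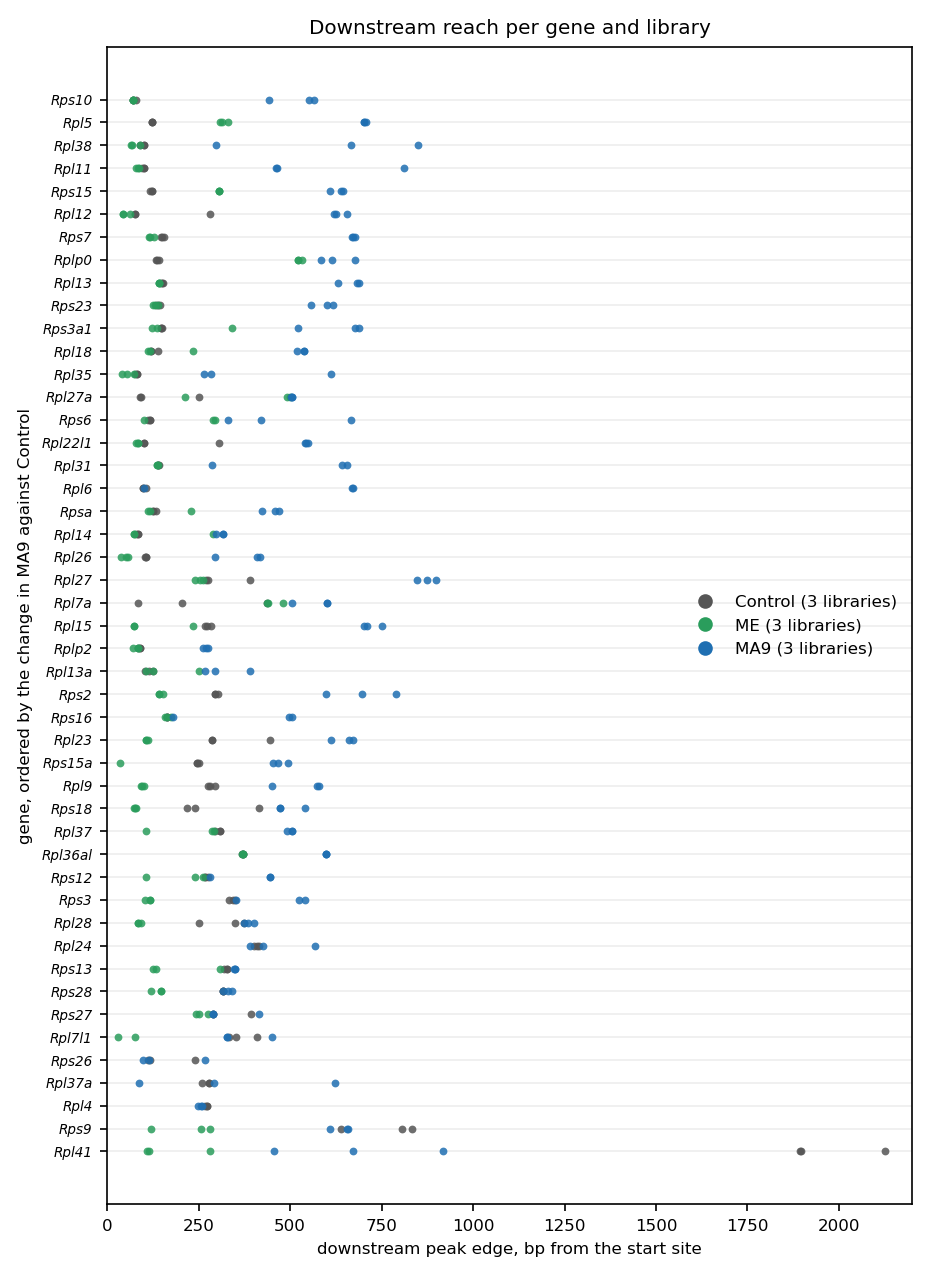
Downstream peak edge in bp from the start site (horizontal axis) for the 47 members fitted in MA9 against Control, 1 point per library where a start-site peak was called, in Control, ME and MA9. From Rps10 at the top, most MA9 points lie to the right of the Control points, and Rpl41 at the bottom is reversed.

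The lengthening in MA9 was unequal across related lists. Translation factors whose mRNAs also begin with a pyrimidine tract were longer at 7 and shorter at 1 of 10 fitted, with a median change of 1.17. Mitochondrial ribosomal protein genes were longer at 8 and shorter at 3 of 58 (median 0.06), ribosome assembly factors longer at 4 of 18 (0.33), and genes of the RNA polymerase I machinery longer at 1 and shorter at 1 of 11 (0.10), beside 0.39 for all genes. Of all genes, 37.4% were longer and 6.41% shorter. The differences between lists were not tested. In relative strength, the same lists in MA9 had 6 higher and 7 lower of 17 translation factors, 21 and 32 of 64 mitochondrial ribosomal protein genes, 4 and 16 of 25 assembly factors, and 2 and 8 of 14 RNA polymerase I genes. Over all genes 35.9% were higher and 40.6% lower.

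In ME, downstream reach changed less. Of 40 members fitted against Control, 3 were longer and 12 shorter, where 7.86% and 45.7% of all genes were. The longer ones were Rplp0, Rpl5 and Rps15, the last at 306, 306 and 306 bp in ME (limma adjusted p = 7.54e-06). The shorter ones were led by Rpl41, Rps9 and Rpl28. ME peaks of all genes were shorter by a median of 0.29 on the log2 scale, and centred on each library's median 20 members were longer, so the direction of the count depended on the scale. MA9 was longer than ME at 33 and shorter at 0 of 40 (78% and 0% of all genes), and at 12 after centring. For the centred counts in both comparisons the share of all genes was not computed. Upstream, ME was shorter than Control at 29 of 40 members and longer at 0 (69.9% and 1.71%).

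BN1 start-site peaks were short on both sides. Of 13 members fitted against Control, 11 had a shorter and 0 a longer downstream reach, close to the 84.3% and 0.354% of all genes, and 13 of 13 had a shorter upstream reach (89.9%). Rps18 reached 68, 68 and 68 bp downstream in BN1 and 416, 219 and 240 bp in Control (limma adjusted p = 0.00194). Rps12 reached 62, 92 and 72 bp in BN1 and 274, 268 and 268 bp in Control (9.41e-05). Rpl27a was at 74, 76 and 84 bp and at 252, 91 and 90 bp, and did not pass. No member in BN1 reached over 250 bp downstream, while 9.39 to 13.1% of other called genes did.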

How the data were processed

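ATAC-seq was measured in 12 libraries, 3 per group. The authors deposited 1 narrowPeak list per library; per the submitters' processing notes, Genrich, Bowtie2 2.5.4, deepTools 3.5.1 and Picard 3.2.0 were used with mm10 (GRCm38), with options not given in the sources used here. The deposited lists hold a −log10 p at the summit, a signal value never below 200 (read as the area under the −log10 p curve), a display score that was not used, and the summit position; none is on a common scale between libraries.

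Genes, start sites and promoters came from RefSeq GRCm38.p6. A gene's strongest peak within 1 kb of either end was used. Percentiles, widths and reach were computed in Python 3.11.15, and fits in limma 3.58.1 (R 4.3.3, trend, threshold 0.05). In simulated data, shifts of 1 in the normal score were recovered for 71.5% of 200 genes in BN1 against Control and 96.5% in MA9 against Control, and shifts of 0.5 for 0% and 66%. Same-numbered libraries did not deviate together, so no pairing was used.

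Members and lists were chosen with earlier results of these data known; start-site peaks, reach and the removal of shared peaks were added after seeing the data. Named were members past the threshold (all if 12 or fewer, else the 6 largest rises and falls), members never called, the 5 highest and 5 lowest in BN1, and fixed disease genes and paralogs; 3 members are not reported here by name; reach examples were chosen after their values were seen.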

Additional observations from a re-analysis of the deposited data

How the results depend on the processing

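Read numbers are unknown, so depth limits each missing peak. For the counts of members called with lists of equal length or with a signal limit, the share of all genes was not computed. Counts of members called in all libraries: without 1 library 73 in Control, 72 to 73 in MA9, 62 to 64 in ME and 20 to 23 in BN1; with lists of equal length, which keep fewer peaks, 40 for Control and 24, 22 and 18 for MA9, ME and BN1; with signal of at least 400, 7 in BN1. The width ratio in Control was 0.93 by the signal column and 0.921 with a window of 500 bp, in BN1 0.947 within 5 points, 0.976 by the signal column and 0.935 with signal of at least 400, and in ME 0.959 by the signal column; without 1 library it was 0.889 to 0.903 in Control, 0.958 to 0.968 in BN1, 1.11 to 1.15 in MA9 and 0.897 to 0.929 in ME. Members called less the number at matched strength were -2.74 (BN1), 0.656 (MA9) and 6.07 (ME) by the signal column, 1.19 (MA9) and 2.46 (ME) with a window of 500 bp, and without 1 library -8.88 to -7.06 (BN1), -0.0927 to 0.955 (MA9) and 1.51 to 2.58 (ME).

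Members changed in relative strength numbered 7 to 15 for BN1 against Control without 1 library, 54 to 55 for MA9 and 45 to 53 for ME against Control, 0 to 6 for BN1 against MA9, 1 to 6 for BN1 against ME and 4 to 9 for MA9 against ME. With start-site peaks, where fewer members are fitted, the counts were 6, 35 and 27 against Control, 0 for BN1 against MA9, 1 for BN1 against ME and 3 for MA9 against ME. Signal of at least 400 gave 3 for BN1 against Control, 1 against MA9 and 0 against ME. By the signal column it was 7 for BN1 against MA9, 7 for BN1 against ME and 32 for MA9 against ME, and by centred log2 27 for MA9 against ME. A window of 500 bp gave 1 for BN1 against MA9 and 1 against ME; against ME, a window of 2 kb, calls in at least 2 of 3 libraries and leaving out shared peaks gave 1 each. With the replicate number as a block, BN1 against MA9 had 0 and no other count moved past 1.5 times; correlations of same-numbered libraries were at most 0.108, so the numbers were not taken as pairs.

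Downstream reach was longer at 29 to 33 members (MA9 against Control), 3 to 4 (ME against Control) and 30 to 35 (MA9 against ME) without 1 library, and after centring at 20 (ME against Control) and 12 (MA9 against ME). Directions reversed by the signal column, in normal scores: in BN1 against Control Rpl27 (0.39), Rps19 (0.38) and Rps29 (-0.71); in MA9 against Control Rpl22l1 (0.0255), Rplp0 (0.40) and Rps19 (0.0651); in ME against Control Rpl11 (0.24), Rplp0 (0.60) and Rps19 (0.34); Rpl27 in BN1 against MA9 (0.49), and Rpl27 (-0.19) and Rps26 (-0.33) in MA9 against ME. By centred log2, Rps19 reversed in BN1 (0.0152) and ME (0.0595) against Control. Centred downstream reach in MA9 reversed for Rpl24 (-0.65), Rpl28 (-0.56), Rpl36al (-0.17), Rpl37 (-0.16), Rps13 (-0.71), Rps27 (-0.77) and Rps28 (-0.74). The cause was not tested beyond the number of peaks or genes left. The signal column orders peaks by height and width together.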

Other observations

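Of the 86 members, 28 hold a small nucleolar RNA gene in their span; small nucleolar RNAs guide the modification of ribosomal RNA and are cut from introns of their hosts. Of these hosts, a gene-end peak was called in all 3 libraries at 26 in Control and MA9 alike, at 22 in ME and at 8 in BN1. Over all members the counts were 73, 72, 62 and 19 of 86 in Control, MA9, ME and BN1, and over all genes the shares were 43%, 45.4%, 26.9% and 10.1%.

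The summit of the start-site peak lay just upstream of the start site in every group. Its median position over members was -64, -65 and -62 bp for Control and -64, -54 and -59 bp for MA9. The ME medians were -56.5, -62.5 and -64 bp and the BN1 medians -88, -84.5 and -88 bp, where 13 to 18 of the called members had it upstream. For other genes it was -57 to -58 bp in Control and -80 to -89 bp in BN1.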
